A study of Mus musculus with 22 samples.

Results

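The mouse myeloid panel of the NanoString nCounter system, which counts each transcript through a fluorescent barcode without amplification, was read in 22 samples of granulocytic myeloid-derived suppressor cells from mouse mammary tumours. These are neutrophil-like cells of tumours that can restrain T cells. Of the 655 endogenous genes in the deposited table, 92 (14.0%) had a normalized count below 10 in at least 18 of the 22 samples. They are described here as the genes at background. Nos2 and Il10 were set aside in the choice. The choice rests on the same normalized counts that are reported below, so a low level of these genes is a selection and not a finding. What can be read from them is which cell types and functions they belong to, and which single samples stand out. Their comparison with the negative control probes is given as a description, since the choice favours low counts there too.

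Tumours were grown from the NT2.5 mammary cancer line, of which 50000 cells were placed in the mammary fat pad; the hosts were female FVB neu-N mice of 7 to 8 weeks. These mice carry a rat neu (HER2) transgene that the mouse mammary tumour virus promoter drives in the mammary gland. Treatment started 3 days later and lasted 3 weeks. There were 6 vehicle samples (methylcellulose by mouth and isotype antibodies) and 4 samples in each of the other groups. These received entinostat alone, entinostat with anti-PD-1, entinostat with anti-CTLA-4, or all 3 agents, the triple combination, so every treated group had entinostat. Entinostat blocks class I histone deacetylases and was dosed orally each day at 5 mg/kg, and each antibody, which blocks a checkpoint receptor of T cells, was dosed at 100 µg per mouse 2 times a week. Whether these mice also received an anti-HER2 antibody is not given in the sources used here. Cells carrying the surface protein Ly6G were selected on magnetic columns, and RNA was taken from the bulk isolate. In such bulk RNA, fewer cells of a type and less RNA per cell cannot be told apart. Since no label says that the samples are from separate animals, p-values reflect the spread among the samples alone, and that spread may be technical.

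A myeloid panel holds probes for many cells besides neutrophils, so that one probe set can serve several kinds of sample. Mature neutrophils carry out their work largely with granule proteins made earlier in the bone marrow, and in textbooks they lack the antigen receptors, costimulatory receptors and lineage cytokines of lymphocytes and the proteases of mast cells. A probe whose transcript is not there still collects a few barcodes by chance, and the negative control probes, which match no transcript of the sample, measure how many. The background of a sample was set here at the mean plus 2 SD of its 8 negative controls, in barcode counts.

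Depth differed widely between the samples and sets what a normalized count of 10 means. The shallowest, triple combination sample 2, had 23296 recovered barcode counts in all, and the deepest, entinostat plus anti-CTLA-4 sample 1, had 443846. Each barcode stood for 9.78 normalized counts in the former and for 0.400 in the latter. The limit of 10 normalized counts thus stood at 1.02 barcode counts in triple combination sample 2 and at 25.0 in entinostat plus anti-CTLA-4 sample 1. The negative-control limit lay between 7.33 and 15.9 barcode counts, or between 4.25 and 79.8 normalized counts, and it was above 10 normalized counts in 17 of the 22 samples. The weakest positive control stood above the limit in all 22 samples. Triple combination sample a lay among vehicle lanes of cartridge 1, and vehicle sample 3 beside triple combination lanes of cartridge 2. Labels were kept as given, and several counts of called genes are also given without these 2 samples. The genes named as above a limit are named with all samples kept.

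The genes at background did not exceed the negative controls as a group. Their mean barcode count per sample was 1.75 to 4.90, and that of the negative controls 2.88 to 9.00. The mean of the 92 genes was the lower in 21 of 22 samples, and only in vehicle sample 3 was it higher, at 3.59 against 3.12 barcode counts. Over the 22 samples the mean count of a single gene at background ran from 1.59 to 6.09, and that of a negative control probe from 4.00 to 8.18. Of the 92 genes, 61 averaged less than the lowest of the negative control probes. The negative controls were not chosen by level and the 92 genes were chosen as low, so this order is not a finding about them. In all, 73 genes stood above the limit in no sample, 17 in 1 sample, Faf1 in 2 and Tnfrsf4 in 3. The count of 19 genes above the limit in at least 1 sample compares with 86.1% of all 655 genes, a share that the choice of low genes fixes in advance. The word silent is therefore too strong for the set, and for most of its genes the data say that no transcript was detectable above the background of these lanes.

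**Figure D1:**
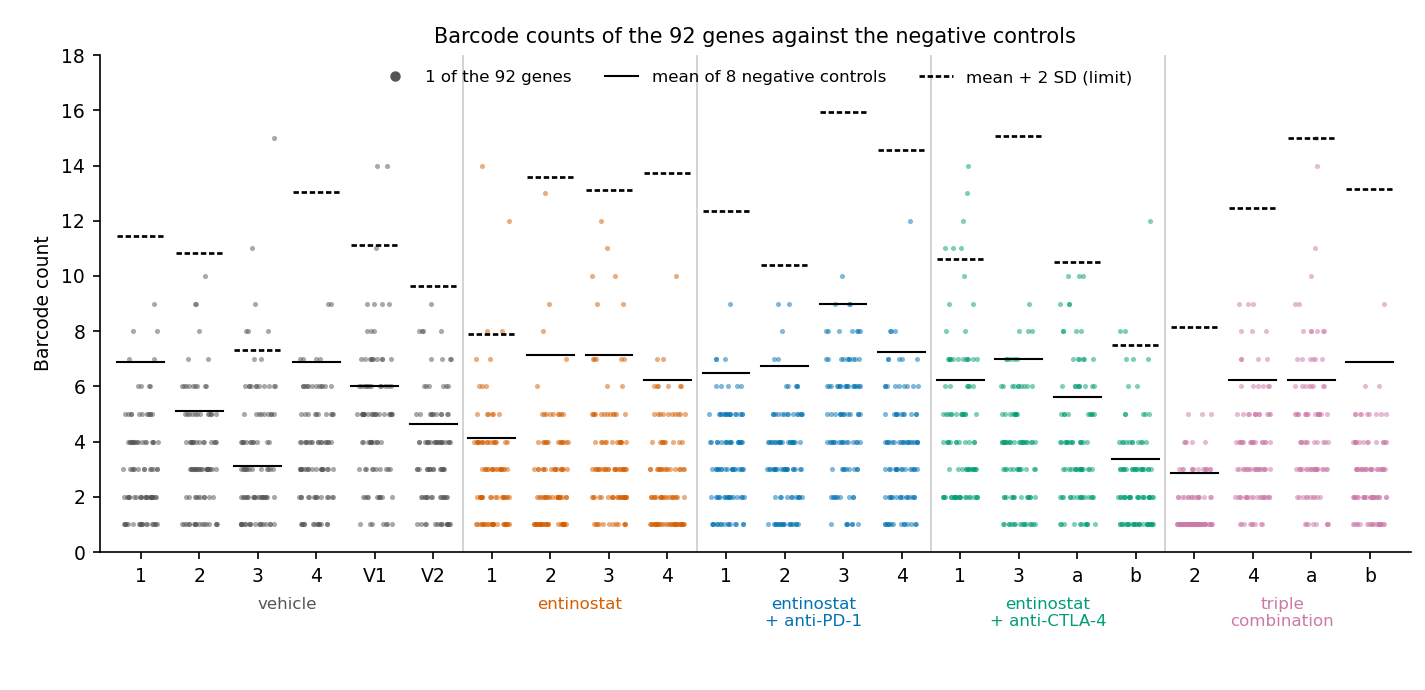
Barcode counts (vertical axis) of each of the 92 genes (points, spread sideways for legibility) in each of the 22 samples, with the mean of the 8 negative controls (solid line) and the mean plus 2 SD (dashed line) of the same sample. Most points lie below both lines, and the points above the dashed line are in 6 samples, with at most 6 genes in any of them.

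The choice could not separate these genes sharply from their neighbours. Just inside it, Rnase2b, Ptgdr, Ly6g, Itgb7, Hoxd4, Fbxl7, Erg, Csf2 and Cd28 all had an 18th lowest value of 9.78, which is the worth of 1 barcode count in triple combination sample 2. Just outside it, Ceacam2, Scin and Zfp92 had 10.1, Adcyap1r1 and Cd209e 10.2, and Tlr7 10.3 normalized counts. Those outside were no more often detected. Scin, Adcyap1r1, Cd209e and Tlr7 exceeded the negative-control limit in 0 samples, Ceacam2 in 1 and Zfp92 in 2. By barcode counts 157 genes lay at or below the limit in at least 18 samples, 24% of the panel. The 92 genes were all among them, with 65 others.

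The genes of the neutrophil list on the same panel were clearly measured. S100a8 and S100a9 (calprotectin), the G-CSF receptor gene Csf3r and the chemokine receptor gene Cxcr2 exceeded the limit in 22 of 22 samples, and so did 10 of the 11 genes of the neutrophil list, with Fpr1 above it in 20. That list leaves out Ly6g, Mpo and Ctsg, which are among the 92. Also outside it, Elane and Camp of the granulocyte precursor list exceeded the limit in 14 and 10 samples. Mmp8 and Fcnb, placed on other lists, exceeded it in 6 and 0. Transcripts of other tumour cells were measured too. E-cadherin Cdh1 of epithelial cells and Pdgfra and Col3a1 of fibroblasts exceeded the limit in 22 samples, and Cdh5 of endothelium in 18. The lists of endothelial (7 measured), resident macrophage (9) and fibroblast genes (4) held none of the 92, although Timd4 and Siglec1 of the macrophage list exceeded the limit in 0 and 4 samples. Other genes of such cells were at background: Erg, which endothelium expresses, and the macrophage genes Mpeg1 and Aif1.

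When the 92 genes were sorted by role, lymphocyte receptor and signalling genes formed the largest group, with 20. Genes outside the 92 were not sorted in this way. The size of the group therefore cannot be compared with the share of such genes on the panel. Of 14 measured genes of T cells, 7 were at background: the costimulatory receptors Cd27, Cd28 and Icos, the inhibitory receptors Pdcd1 (PD-1) and Tigit, and the cytokines Il2 and Ifng. Another 3 T-cell genes, Ctla4, Cd40lg and Cxcr3, lay outside the choice but exceeded the limit in 2, 3 and 0 samples. The other 4 were measured in more samples, with Cd247 (the zeta chain of the T-cell receptor complex) above the limit in 5, Lag3 in 17, and Btla and Gata3 in 22, and the last 3 of these are also expressed by cells other than T cells. The receptor target of one of the study's antibodies, Pdcd1, was above the limit in no sample. Of 4 B-cell genes, Ms4a1 (CD20) and Fcer2a (the low-affinity IgE receptor CD23) were at background, whereas Cd38 and Cd40, which myeloid cells also carry, exceeded the limit in 21 and 18 samples. Of 4 genes of NK and cytotoxic cells, Klrk1 (the receptor NKG2D) and Gzma (granzyme A) were at background, and Nkg7 and Cd244 exceeded the limit in 1 and 2 samples. The markers Cd3d, Cd3e, Cd4, Cd8a and Ncr1 were not analysed here.

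Receptor and ligand pairs were at background together in a few cases. Tnfrsf4 (OX40) of activated T cells and its ligand gene Tnfsf4 both belonged to the 92, and so did Cd27 and its ligand gene Cd70. The related pair Tnfrsf9 and Tnfsf9 (4-1BB and its ligand) did not, since Tnfsf9 exceeded the limit in 22 samples and Tnfrsf9 in 2. The other lymphocyte genes at background were Havcr1 (TIM-1) and Havcr2 (TIM-3), the chemokine receptors Ccr6 and Ccr8, the integrin chain Itgb7 of gut-homing lymphocytes, Il27ra, the adaptor Lat and the transcription factor Stat4, which acts downstream of interleukin-12. Relatives of several of these were well above the limit. The leukocyte integrin chain Itgb2 and the factors Stat3, Stat5a, Stat5b and Stat6 exceeded it in 22 samples, and Lat2, the adaptor of myeloid and B cells, in 13.

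Genes sorted as those of mast cells, basophils and eosinophils made up 10 of the 92. That number includes 3 genes of the prostaglandin D2 pathway, Ptgds among them. Of 7 mast cell and basophil genes, 5 were at background: the proteases Cma1 (chymase), Cpa3 (carboxypeptidase A3) and Tpsb2 (tryptase), the IgE receptor chain Fcer1a and the cytokine Il4. Gata2 exceeded the limit in 1 sample, and Kit, which stem cells and other cells also carry, in 14. Eosinophil genes were mixed. Il5ra, the interleukin-5 receptor chain, and the ribonuclease Ear6 were at background and Prg3 exceeded the limit in 0 samples, whereas the granule genes Prg2 and Epx exceeded it in 6 samples each, the eotaxin receptor gene Ccr3 in 16 and Siglecf in 22. The prostaglandin D2 pathway, through which mast cells call in other type 2 cells, was split, also between its alternative synthases. The synthase Ptgds and the receptors Ptgdr and Ptgdr2 were at background. The other synthase, the haematopoietic Hpgds, exceeded the limit in 12 samples and the upstream cyclooxygenases Ptgs1 and Ptgs2 in 22.

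**Figure D2:**
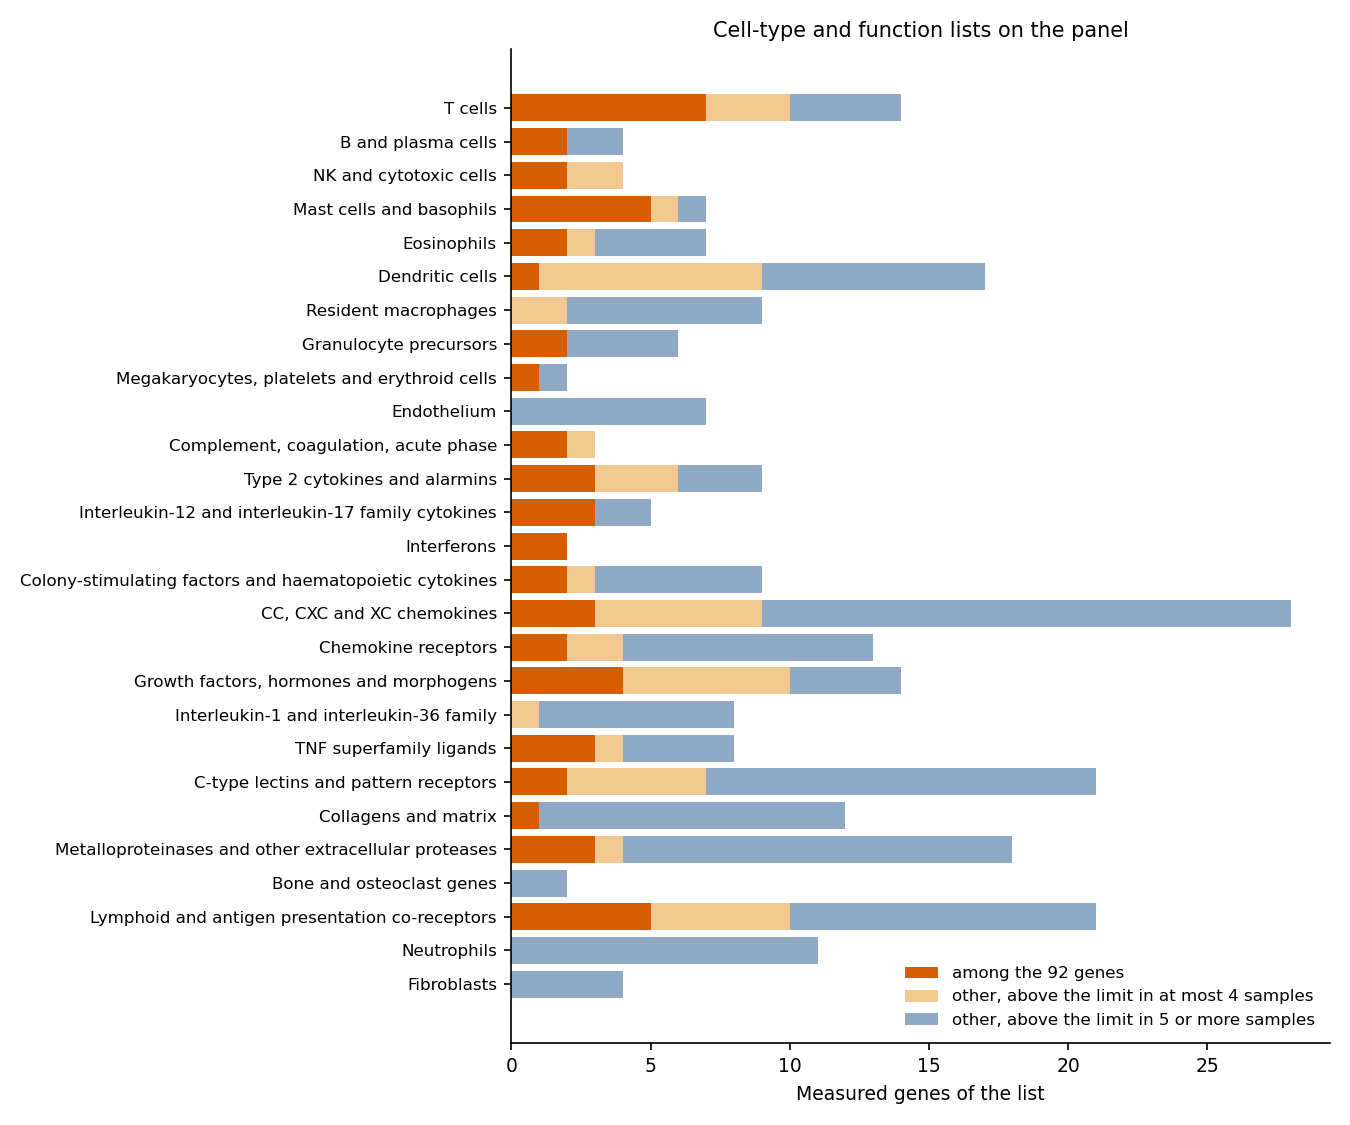
Number of measured genes (horizontal axis) in each cell-type or function list, divided into those among the 92 genes, other genes above the negative-control limit in at most 4 of 22 samples, and other genes above it in 5 or more. Both interferon genes and 5 of 7 mast cell and basophil genes are among the 92. None of the 11 genes of the neutrophil list or the 7 of the endothelial list is. The neutrophil list leaves out Ly6g, Mpo and Ctsg, which are among the 92.

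Among 10 further myeloid and blood-cell genes at background were 2 azurophil granule genes. Mpo (myeloperoxidase) and Ctsg (cathepsin G), which are transcribed in promyelocytes and are then carried as protein by mature neutrophils, exceeded the limit in 1 and 0 samples, while Elane (neutrophil elastase), of the same granules, exceeded it in 14. Flt3, the receptor of dendritic cell progenitors, was the single gene at background among 17 measured dendritic cell genes, and 8 more of that list exceeded the limit in at most 4 samples. Itgax, Fscn1 and Cd83 of the same list exceeded it in 20, 21 and 22. Gata1, the master factor of erythroid cells and megakaryocytes, and Clec1b (CLEC-2, a platelet receptor) were at background. Also at background were Mpeg1 (perforin-2 of macrophages), Aif1 (IBA1), the channel gene P2rx1 and Erg, a transcription factor of endothelium and stem cells.

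Ly6g itself was among the 92, although the cells had been selected by the Ly6G surface protein. The 6 vehicle samples held 3.43 to 8.23 normalized counts, with a median of 5.64. The entinostat samples 1 to 4 held 5.32, 30.2, 18.8 and 22.5, samples 1 to 4 of entinostat plus anti-PD-1 7.48, 5.84, 6.71 and 7.21, the anti-CTLA-4 combination 4.40, 2.46, 8.86 and 1.74 in its samples 1, 3, a and b, and the triple combination 9.78, 12.4, 5.82 and 5.07 in its samples 2, 4, a and b. Of the entinostat samples 3 stood above every sample of the other groups, and the fourth lay within the range of the vehicle samples.

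In barcode counts the order was less clear. Ly6g had 3, 13, 10 and 10 counts in the entinostat samples, where the negative-control limits were 7.90, 13.6, 13.1 and 13.7, so none exceeded its limit. It had 2 to 9 counts in vehicle. The only sample above its own limit was entinostat plus anti-CTLA-4 sample 1, with 11 counts against a limit of 10.6. The probe carries the identifier of a predicted transcript model that is not among the 2 RefSeq transcripts listed for Ly6g, and an identifier could be traced to the same symbol for 89 of the 92 genes. The 3 exceptions were Ly6g, Fpr-rs5 and Mx2. The related gene Ly6c1 exceeded the limit in 22 samples.

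**Figure D3:**
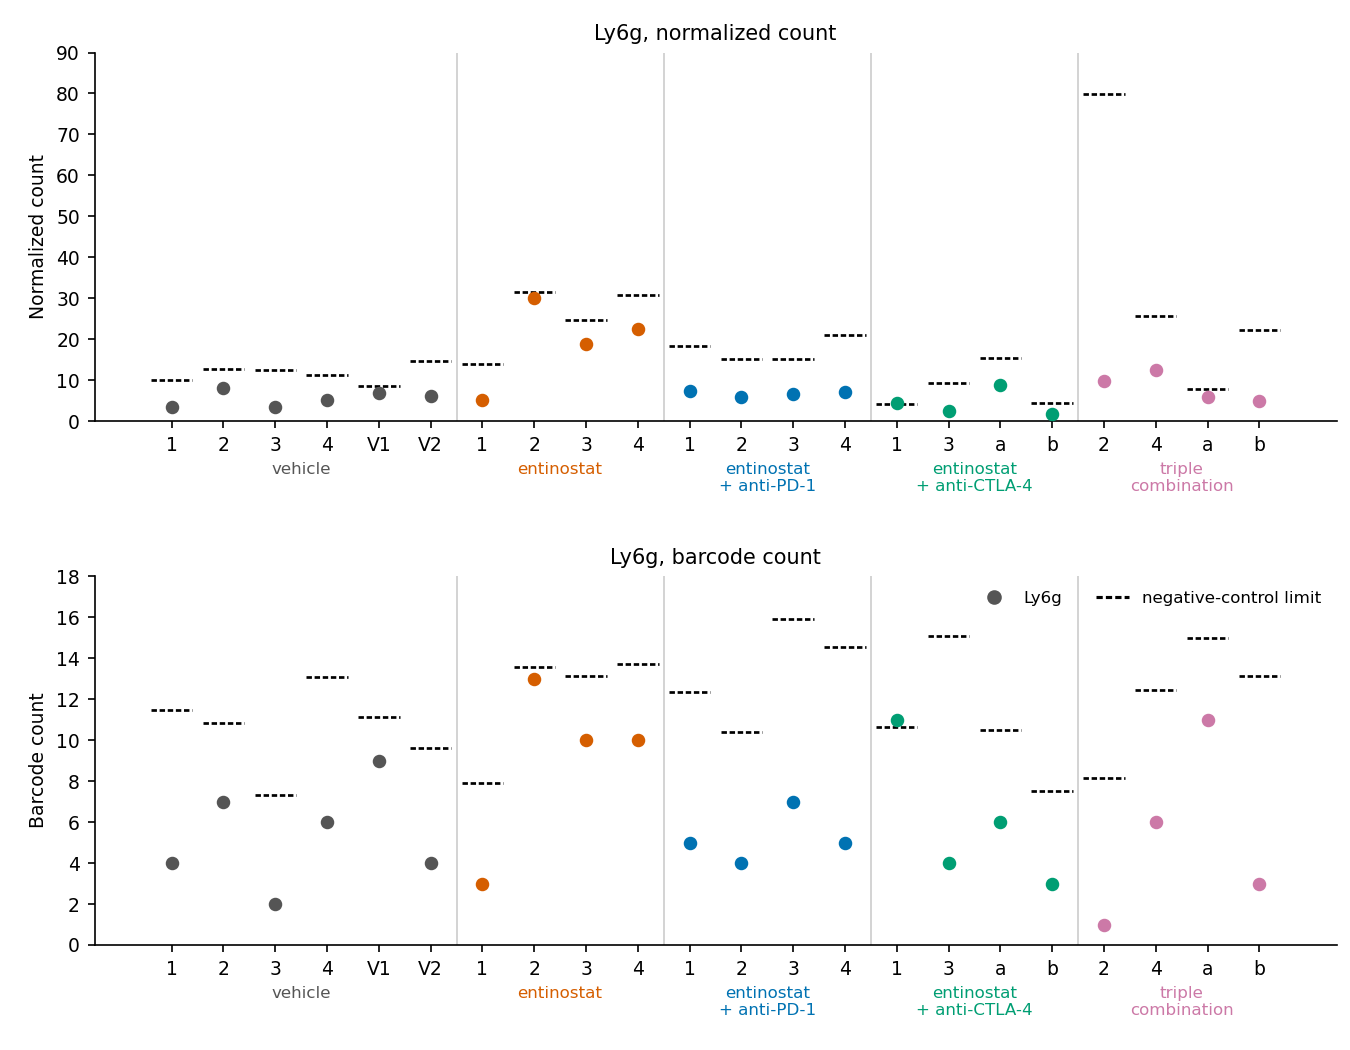
Ly6g in each sample as a normalized count (top) and as a barcode count (bottom), with the negative-control limit of the sample (dashed line) on the same scale. Entinostat samples 2, 3 and 4 are the highest on the normalized scale at 18.8 to 30.2, and only entinostat plus anti-CTLA-4 sample 1 lies above its limit.

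Cytokines and chemokines supplied 14 of the 92 genes, and none of these 14 exceeded the limit in any sample. Both measured interferon genes, Ifna1 and Ifng, were at background. So were both chains of interleukin-12, Il12a and Il12b, which direct T cells towards interferon production, while the interleukin-23 chain Il23a exceeded the limit in 22 samples. Of the type 2 cytokine list, Il3, Il4 and Il9 were at background and Il25 exceeded the limit in 21. Among growth factors for blood cells, Csf2 (GM-CSF) and Il3 were at background, but Csf1 (M-CSF) and Csf3 (G-CSF) exceeded the limit in 22. The T-cell chemokine genes Ccl1, Ccl5 and Ccl19 were the 3 at background among 28 measured chemokine genes, in which Ccl3 and Ccl4 exceeded the limit in 22. Lta (lymphotoxin alpha) was at background and Ltb and Tnf were above the limit in 22 samples. The remaining members of this group were Il2 and Il22.

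Innate sensors and effectors accounted for 11 genes. Of 7 measured formyl peptide receptors, which guide neutrophils to bacterial peptides, the 5 named Fpr-rs3, Fpr-rs4, Fpr-rs5, Fpr-rs6 and Fpr3 were at background in a family where Fpr1 exceeded the limit in 20 and Fpr2 in 22 samples. These genes are close copies of each other, and how far their probes cross-react is not given in the sources used here. Tlr12, a sensor of parasite profilin, was the single Toll-like receptor gene at background, although Tlr7 and Tlr9 exceeded the limit in only 0 and 1 samples, against 22 for Tlr2, Tlr3, Tlr4 and Tlr13. The interferon-induced genes Mx2 and Ifit1bl1 were at background, and their relatives Mx1 and Ifit1bl2 exceeded the limit in 17 and 6 samples. The others were Hc (complement C5) and Saa1 (serum amyloid A), secreted mainly by the liver, and Retnlb.

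Growth factor and matrix genes (8) and enzymes and transporters (8) followed. Egf, Fgf2, Fgf10 and the vessel factor Angpt1 were at background, together with the Wnt receptor Fzd9, the cartilage collagen gene Col10a1 and the proteases Mmp1a and Adamts3. Angpt2, the partner of Angpt1, exceeded the limit in 17 samples, and of 12 measured collagen and matrix genes Col10a1 was the only one at background. The NADPH oxidase genes Nox1 and Nox3 of epithelia were at background, while Cybb (the phagocyte oxidase) and Nox4 exceeded the limit in 22. The tryptophan-degrading enzymes Ido1 and Ido2 were at background, and Arg1 (arginase), a common marker of suppressive myeloid cells, exceeded the limit in 21. The other enzymes were Fbp1 of gluconeogenesis, Acot3 and Cyp3a13, and the transporter was Abcc8, a subunit of the potassium channel of islet cells. The last 11 genes included the muscle genes Myod1 and Myh4, the developmental factors En1 and Hoxd4, the kinase genes Mapk12 and Ros1, and Rgs6, Kcnab1, Fbxl7, Faf1 and Pdzk1ip1.

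**Figure D4:**
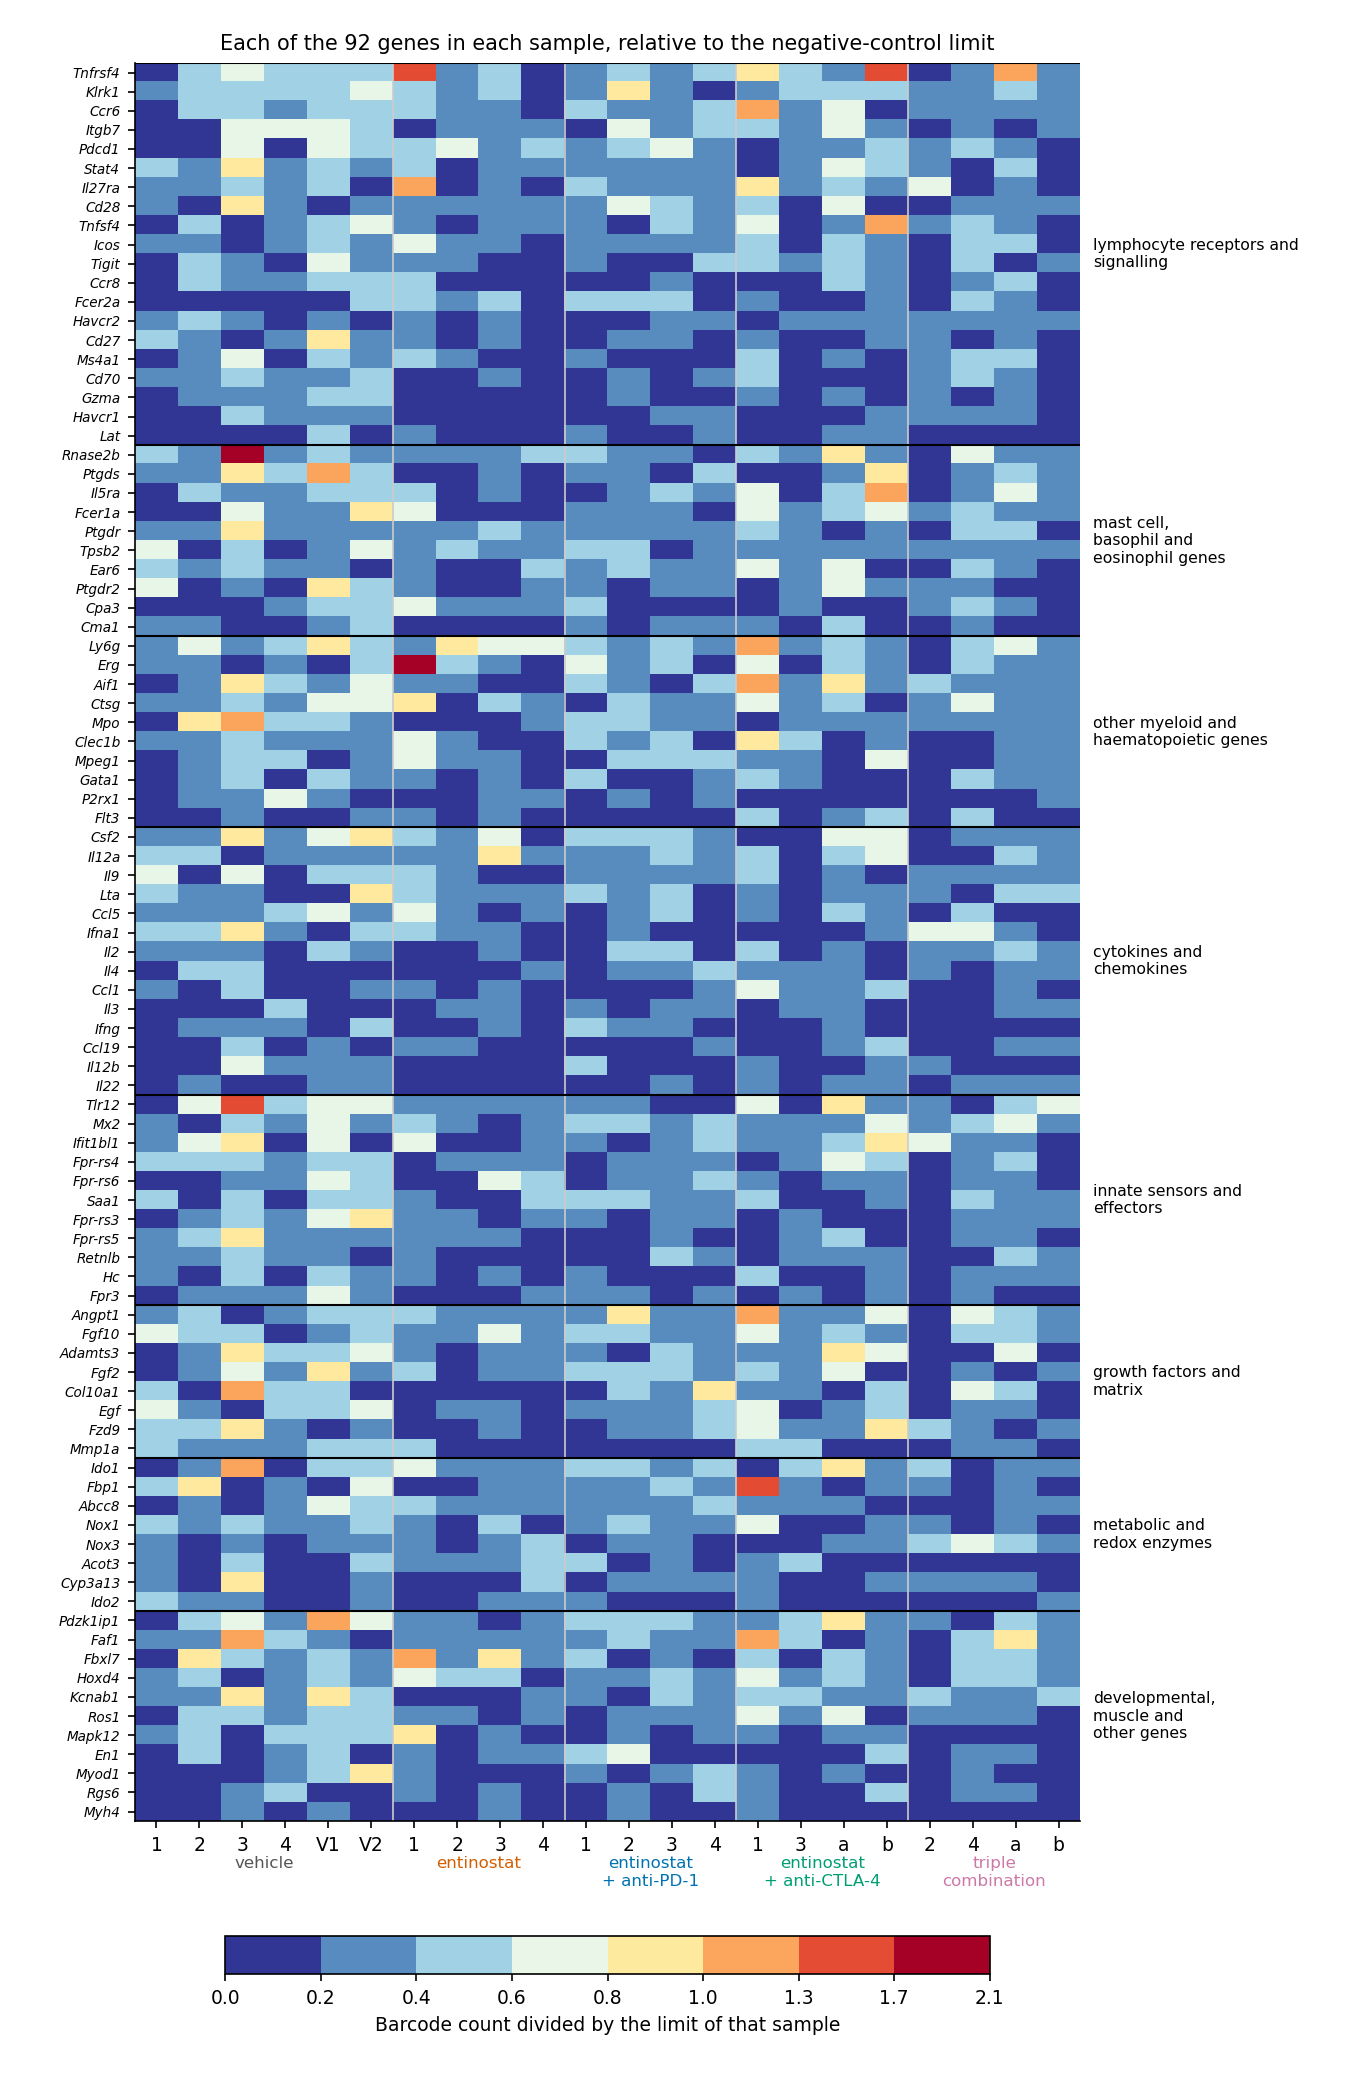
Barcode count of each of the 92 genes (rows, ordered by role) in each of the 22 samples (columns), divided by the negative-control limit of that sample. Orange and red cells, above 1, mark the 22 values above the limit. They are scattered over 19 genes, and the cytokine and chemokine rows have none.

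The single samples that rose above the limits depended on which limit was used. Of the 2024 values of these genes, 190 were at or above 10 normalized counts and 22 were above the negative-control limit of their sample, and 12 met both. At least 1 such value of 10 or more was found in 76 of the 92 genes, against 97.6% of all 655 genes. By sample, 37 genes reached 10 normalized counts in triple combination sample 2, 28 in triple combination sample 4, 19 each in vehicle sample 3 and entinostat sample 4, and 16 in entinostat plus anti-CTLA-4 sample a. Entinostat samples 1, 2 and 3 had 9, 14 and 13, and 7 samples had none. Of the 190 values, 188 lay in the 14 samples where a barcode count was worth more than 1 normalized count, and 2 in the other 8. The number did not follow that worth closely. At a worth of 1.69 triple combination sample b had 3 genes, and at 1.72 vehicle sample 3 had 19. At 2.07 triple combination sample 4 had 28, and at 2.32 entinostat sample 2 had 14. In triple combination sample 2, the 37 genes were those with 2 or more barcode counts and the other 55 had 1, while its negative-control limit was 8.16 counts, and none of the 92 exceeded it, against 48.9% of all genes.

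**Figure D5:**
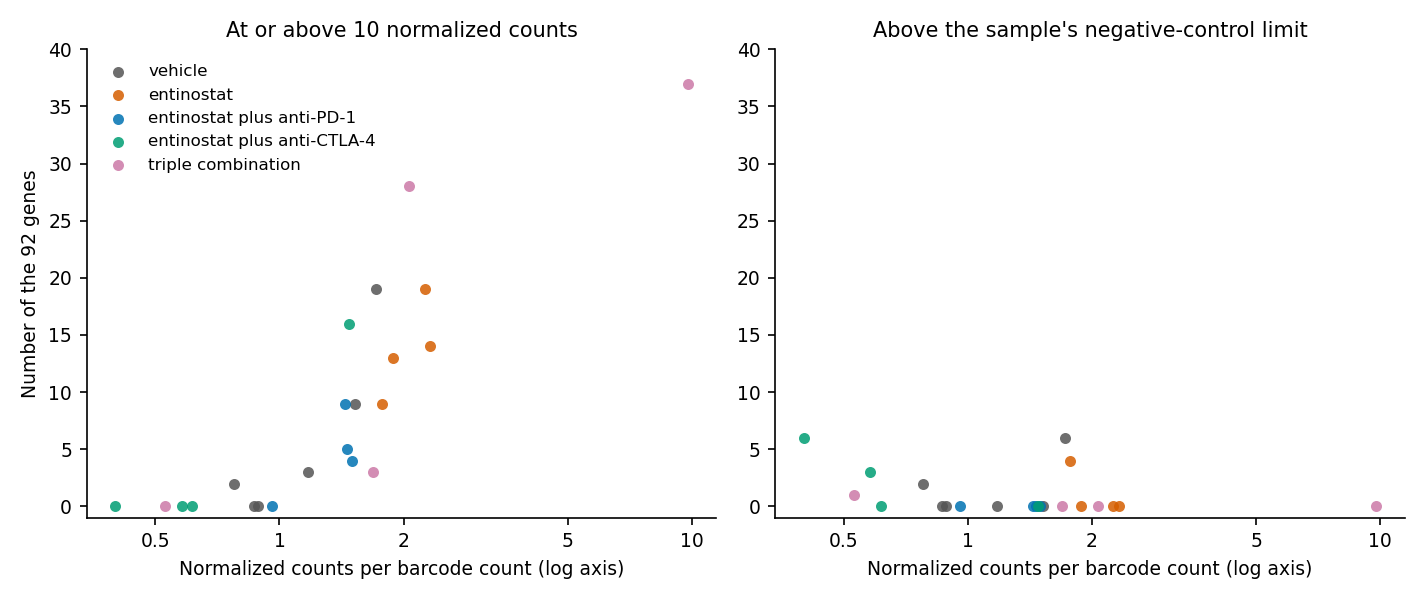
Number of the 92 genes in each sample at or above 10 normalized counts (left) and above the negative-control limit of the sample (right), against the worth of 1 barcode count in normalized counts (log axis). On the left the number reaches 37 in triple combination sample 2, where a count is worth 9.78, and on the right it is 0 in that sample and at most 6 in any.

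Measured against the negative controls, 6 samples had genes above the limit: entinostat plus anti-CTLA-4 sample 1 (6 genes, against 77.6% of all genes), vehicle sample 3 (6, against 71.6%), entinostat sample 1 (4, against 75%), entinostat plus anti-CTLA-4 sample b (3, against 72.1%), vehicle sample V1 (2, against 71.3%) and triple combination sample a (1, against 70.2%). Vehicle sample 3, entinostat sample 1 and entinostat plus anti-CTLA-4 sample b had the 3 lowest limits among the 22, at 7.33, 7.90 and 7.51 barcode counts. In vehicle sample 3 the genes were Rnase2b, Tlr12, Mpo, Col10a1, Faf1 and Ido1. In entinostat sample 1 they were Erg, Tnfrsf4, Fbxl7 and Il27ra. In entinostat plus anti-CTLA-4 sample 1, the deepest of all, they were Fbp1, Aif1, Angpt1, Ccr6, Faf1 and Ly6g, all below 10 normalized counts. Sample b of that group held Tnfrsf4, Il5ra and Tnfsf4, vehicle sample V1 held Pdzk1ip1 and Ptgds, and triple combination sample a held Tnfrsf4. The other 16 samples had none, although 320 to 488 of the 655 genes exceeded the limit in them.

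Rnase2b, a ribonuclease of the eosinophil family, had the highest ratio to a limit. It had 15 barcode counts in vehicle sample 3, or 25.7 normalized counts, which was 2.05 times the limit of 7.33 counts. In the other 5 vehicle samples it had 2.60 to 4.43 normalized counts. Its values in the remaining groups reached 16.5 in triple combination sample 4, 15.7 in entinostat sample 4 and 13.3 in entinostat plus anti-CTLA-4 sample a, and none of these was above the limit of its sample. The rise of Rnase2b above the limit thus rested on 1 sample. Of its relatives, Rnase2a exceeded the limit in 3 samples and Ear3 in 19.

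Erg was next, with 14 counts (24.8 normalized counts) in entinostat sample 1, 1.77 times its limit. In the other entinostat samples Erg held 18.6, 9.41 and 2.25 normalized counts, and in the 6 vehicle samples 1.55 to 7.61. The entinostat samples thus overlapped those of vehicle, through 1 of the 4. Tnfrsf4 was the gene above the limit in the most samples, with 12 counts in entinostat sample 1 and in entinostat plus anti-CTLA-4 sample b, and 15 in triple combination sample a, where the limit was only just passed. These 3 samples came from 3 groups, in each of which the other 3 samples were below the limit. The normalized counts of Tnfrsf4 were 21.3, 6.96 and 7.93 in them and 1.77 to 8.58 in vehicle.

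Tlr12 had 11 counts in vehicle sample 3 (18.9 normalized counts, 1.50 times the limit). Its highest normalized count was 29.3 in triple combination sample 2, which was 3 barcode counts. Fbp1 showed the same contrast between scales: 14 counts in entinostat plus anti-CTLA-4 sample 1 were 5.60 normalized counts, and 3 counts in triple combination sample 2 were 29.3. The first was 1.32 times the limit and the second was below it. Pdzk1ip1 and Ptgds each had 14 counts in vehicle sample V1, 1.26 times the limit. The remaining genes above a limit exceeded it by less, from 1.23 times for Mpo in vehicle sample 3 down to 1.01 times for Il27ra and Fbxl7 in entinostat sample 1. With a limit at the mean plus 3 SD, 8 genes instead of 19 exceeded it in at least 1 sample.

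Mean normalized counts of the 92 genes over all samples ran from 2.46 ± 2.04 for Myh4, a myosin of fast muscle, to 8.55 ± 6.90 for Ly6g (SD, n = 22). Probes are not calibrated against each other, and samples in which a barcode is worth many normalized counts weigh more in these means, so the order of genes between these ends was not read.

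The treatment groups were compared across all 655 genes with limma, on the log2 of the normalized count plus 1. An F test over the 5 groups called 4 of the 92 genes at a Benjamini-Hochberg adjusted p under 0.05, namely Ly6g (adjusted p = 0.0309), Hc (0.0356), Fcer2a (0.0411) and Abcc8 (0.0472). The background was 20.5% of all genes, and 4 of 92 is 4.35%. The choice of genes sets a bound here, since no gene with 10 or more normalized counts in more than 4 samples could enter. With cartridge as a block, the F test also called 4 of the 92, but 1.83% of all genes. Ly6g did not pass in that fit (F test adjusted p = 0.0880). With all genes scaled to the negative controls, the F test called 1 of the 92 (24.6% of all genes). Once vehicle sample 3 and triple combination sample a were both left out, 21 (33.4% of all genes) were called. Leaving out entinostat sample 2 or 3, or any of entinostat plus anti-CTLA-4 samples 1, 3 and b, gave 0 (12.1% to 12.5% of all genes). Leaving out entinostat plus anti-CTLA-4 sample a gave 14 (38%), triple combination sample a 18 (32.7%) and triple combination sample b 9 (20.2%). Leaving out any of vehicle samples 1, 4 and V1, entinostat sample 1, entinostat plus anti-PD-1 samples 2, 3 and 4 and triple combination sample 4 gave 2 (14% to 18.2%).

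Entinostat alone was compared with vehicle to ask what the drug changed. Of the 92 genes 4 were called, all higher: Ly6g, Il12a, Fcer2a and Pdcd1, against 21.2% of all genes called higher, 1.22% called lower and 22.4% called in either direction. Mean Ly6g was 5.58 ± 1.91 normalized counts in vehicle (SD, n = 6) and 19.2 ± 10.4 with entinostat (SD, n = 4). The log2 difference was 1.46 ± 0.40 (SE), with a limma adjusted p of 0.0176. Ly6g was above the highest vehicle value in 3 of 4 samples. Tested directly with limma, Ly6g differed between entinostat and entinostat plus anti-CTLA-4 (1.88 ± 0.44, limma adjusted p = 0.00580). The differences from entinostat plus anti-PD-1 (1.16 ± 0.44, adjusted p = 0.990) and from the triple combination (0.98 ± 0.44, adjusted p = 0.516) did not pass.

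The negative controls moved in the same direction by more. Their mean log2 normalized count was 3.60 after entinostat and 2.64 in vehicle, a difference of 0.96, and that of the 92 genes was 2.65 and 2.22, a difference of 0.43. With every sample scaled to its negative controls, the log2 fold change of Ly6g was 0.45 (adjusted p = 0.533) and no gene of the 655 was called in this comparison. The call of Ly6g was also lost with median centring (0.84, adjusted p = 0.0928), quantile normalization (0.74, adjusted p = 0.0917), without vehicle samples V1 and V2 (1.58, adjusted p = 0.0612), without entinostat sample 2 (1.18, adjusted p = 0.0772) and without entinostat sample 3 (1.39, adjusted p = 0.0702). With numbered samples only, which also leaves out V1 and V2, the difference of 1.58 passed (adjusted p = 0.0169). In quantile normalization 2 of the 92 genes were called, both lower (Cd70 and Ptgds), and with median centring 4, all lower: Cd70, Gzma, Mpo and Ptgds at log2 fold changes of -1.05, -1.15, -1.31 and -1.39. These 4 were already lower without passing before centring, at -0.43, -0.54, -0.70 and -0.77, so other genes were called and none of them changed sign. The call of Ly6g was kept in edgeR's quasi-likelihood test on barcode counts with the deposited scaling (adjusted p = 0.0226) and with TMM factors (adjusted p = 0.0481).

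The other 3 calls rested on very few barcodes. Il12a, a chain of interleukin-12, had 3, 3, 12 and 5 barcode counts in entinostat samples 1 to 4 (5.32, 6.96, 22.6 and 11.2 normalized counts) and 1 to 5 in vehicle (1.72 to 5.88). Its mean was 11.5 ± 7.78 normalized counts (SD, n = 4) against 3.73 ± 1.54 (SD, n = 6). The log2 difference of 1.28 ± 0.39 had a limma adjusted p of 0.0272, and 3 of its 4 values were above all of vehicle.

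Fcer2a had 7.09, 9.28, 13.2 and 2.25 normalized counts after entinostat, which were 4, 4, 7 and 1 barcodes. In vehicle it had 1.00 to 6.09 with a median of 1.73. The log2 fold change was 1.42 ± 0.46 (limma adjusted p = 0.0340), and the groups overlapped in 1 sample of each. Pdcd1, the gene of PD-1, had 7.09, 20.9, 9.41 and 13.5 normalized counts (4, 9, 5 and 6 barcodes) after entinostat and 1.00 to 8.58 in vehicle. Its log2 fold change was 1.69 ± 0.59 (limma adjusted p = 0.0457), and 3 of the 4 samples were above all of vehicle. None of these genes exceeded the negative-control limit in any sample. All 3 calls were lost with negative-control scaling (adjusted p = 0.628, 0.400 and 0.312 in the order given), median centring, quantile normalization or TMM factors. They were also lost without vehicle samples V1 and V2, where the differences were 1.25, 1.60 and 2.08. With numbered samples only all 3 were kept, edgeR with the deposited scaling kept Il12a and Fcer2a, and the cartridge block kept Fcer2a (1.71) and Pdcd1 (2.69).

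The number called against vehicle fell from 4 to 0 without entinostat sample 3 (0.763% of all genes). It fell to 1 without entinostat sample 2 (7.18%), vehicle sample 4 (12.5%) or vehicle sample V1 (13.3%). It fell to 2 without entinostat sample 1 (13.7%) or vehicle sample 1 (10.5%), and rose to 7 without triple combination sample 2 (24.7%). Entinostat and entinostat plus anti-PD-1 lay on cartridge 1 and entinostat plus anti-CTLA-4 on cartridge 2, with vehicle and the triple combination on both. With cartridge as a block 12 of the 92 were called, all higher, against 180 of 655 genes, and Ly6g was at 1.53 (adjusted p = 0.0305). The median log2 fold change was 0.43 over the 92 genes and 0.56 over all 655.

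Hc and Abcc8 passed the F test alone. Hc, complement C5, had 5.32, 4.64, 5.65 and 4.50 normalized counts after entinostat, 6.20, 9.78, 2.11 and 8.45 in triple combination samples 4, 2, a and b, and 1.00 to 2.40 in entinostat plus anti-CTLA-4. All of the last group lay below all of entinostat, and the difference of entinostat from it was 1.20 ± 0.35 on the log2 scale (limma adjusted p = 0.0156). Abcc8 had 7.09, 11.6, 9.41 and 6.75 normalized counts after entinostat and 1.00 to 4.43 in entinostat plus anti-CTLA-4, a difference of 1.66 ± 0.43 (limma adjusted p = 0.00813). In barcodes these groups overlapped, at 3 to 5 against 1 to 4 for Abcc8 and 2 to 3 against 1 to 6 for Hc. The value of 9.78 for Hc in triple combination sample 2 was 1 barcode. Against vehicle neither gene passed in any group, with Abcc8 in entinostat at 1.07 ± 0.39 (limma adjusted p = 0.0564). With cartridge as a block both passed in entinostat, Abcc8 at 1.43 (adjusted p = 0.0279) and Hc at 1.03 (adjusted p = 0.0257). Abcc8 also passed there with a pseudocount of 10 and with numbered samples, and Hc without vehicle sample 3 and triple combination sample a. The F test call of each gene was lost in 7 of the alternative settings and kept in 4. With 1 sample left out, that of Hc was lost in 10 fits and kept in 12. That of Abcc8 was lost in 16 and kept in 6.

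Between entinostat and entinostat plus anti-CTLA-4, 14 of the 92 genes were called, all higher in entinostat alone, against 32.8% of all genes. The negative controls were also higher in entinostat alone, by 1.45 on the log2 scale, and the mean of the 92 genes by 0.86. With negative-control scaling 2 of the 92 were called (33.4% of all genes), and with median centring or quantile normalization 0 (25.8% and 24.4%). Scaled to the negative controls, Ly6g differed by 0.35 (adjusted p = 0.685), Abcc8 by 0.32 (adjusted p = 0.708) and Hc by -0.14 (adjusted p = 0.891), so the direction of Hc turned. The groups lay on different cartridges, and with cartridge as a block, which rests on the vehicle and triple combination samples of both, 31 were called (36.5%). Leaving out entinostat plus anti-CTLA-4 sample a gave 37 (56.5% of all genes), and its samples 1, 3 and b 7, 6 and 6 (16.9%, 20.9% and 15.4%). Without entinostat samples 2 and 3 the numbers were 8 and 9 (22.9% and 20.6%), and without triple combination sample a 22 (38.2%). Against the other combinations, entinostat alone differed in 0 of the 92 genes and 0% of all genes. At an unadjusted p under 0.05 there were 3 of the 92 for anti-PD-1 and 4 for the triple combination. The numbers of all genes at that level are not given here for these comparisons.

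In the 3 combinations with antibody, compared with vehicle for the effect of entinostat and antibody together, none of the 92 genes was called. In entinostat plus anti-PD-1 limma called 0 of the 92 and 6.56% of all genes. There were 3 of the 92 at an unadjusted p under 0.05, against 165 of all 655 genes. In edgeR with the deposited scaling 0 of the 92 were called, and 0.458% of all genes, with 4 of the 92 at that level. Fcer2a had the largest log2 fold change there, 1.21 ± 0.46 (limma adjusted p = 0.102). Over the 92 genes the median log2 fold change was 0.25 and over all genes 0.30, and the negative controls were higher by 0.68.

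In entinostat plus anti-CTLA-4 limma called 0 of the 92 and 0% of all genes. At an unadjusted p under 0.05 there were 6 of the 92, against 18 of all 655 genes. With edgeR 0 of the 92 and 0% of all genes were called, and 12 of the 92 were at that level. The median log2 fold change was -0.41 over the 92 genes and -0.20 over all genes, and the negative controls were lower by 0.49. In the triple combination limma called 0 of the 92 and 0% of all genes. There were 10 of the 92 at an unadjusted p under 0.05, against 87 of all 655 genes. With edgeR 0 of the 92 and 0% of all genes were called, and 1 of the 92 was at that level. For edgeR the numbers of all genes at that level are not given here. The median was 0.58 over the 92 genes and 0.39 over all, and the negative controls were higher by 0.75. Without triple combination sample a limma called 3 of the 92 in this comparison (3.21% of all genes), and without it and vehicle sample 3 it called 1 (0.611%). With numbered samples only, which leaves out triple combination samples a and b, it called 26 of the 92 and 20.3% of all genes. The 4 comparisons share the vehicle samples.

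In all 4 comparisons the sign of the median over the 92 genes was that of the negative controls. After scaling to the negative controls these medians were -0.41 for entinostat, -0.38 for entinostat plus anti-PD-1, 0.053 for entinostat plus anti-CTLA-4 and -0.13 for the triple combination. The part of the lane background in the fold changes was not tested beyond this scaling.

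The promoters of these genes, which played no part in the choice, were poor in CpG dinucleotides, the sites of DNA methylation. RefSeq promoter windows of 300 bases (250 before and 50 after the gene start, GRCm38.p6) were found for 76 of the 92 genes. The ratio of observed to expected CpG had a median of 0.223 for them, 0.536 for the 411 other panel genes with a window and 0.388 for all 27018 genes of the table. A ratio above 0.6, a usual mark of a CpG island, was reached by 10 of the 76 (13.2%), by 45.7% of the other panel genes and by 36.4% of all genes. The motif TATAAA within 20 to 40 bases before the start, on the strand of the gene, was found in 8 of the 76 windows (10.5%), against 6.08% of the other panel genes and 2.22% of all, and anywhere on either strand in 22.4%, 18.7% and 14.2%. These are counts of letters, given without a test. The 8 were the windows of Mmp1a, Ifit1bl1, Myh4, Il2, Fcer2a, Cpa3, Col10a1 and Ifng.

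The windows held 0 to 53 CpG, with 0 in 5 genes. Those of 3 genes are shown as examples: that of Ly6g, the gene of the selection marker, with 1 CpG, that of Ifng, with 7 and with TATAAA 30 bases before the start, and that of Fgf2, 1 of the 10 rich in CpG, with 24. They lie at chr15:75155011-75155310 (plus strand), chr10:118440796-118441095 (plus strand) and chr3:37348403-37348702 (plus strand) of GRCm38.p6. Capitals mark each CG and, in Ifng, the TATAAA motif.
Ly6g: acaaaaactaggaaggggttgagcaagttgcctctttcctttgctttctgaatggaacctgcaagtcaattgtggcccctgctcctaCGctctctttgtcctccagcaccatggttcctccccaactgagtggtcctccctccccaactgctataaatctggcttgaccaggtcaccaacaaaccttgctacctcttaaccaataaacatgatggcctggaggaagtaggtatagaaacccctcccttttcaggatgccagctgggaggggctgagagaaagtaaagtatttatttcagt
Ifng: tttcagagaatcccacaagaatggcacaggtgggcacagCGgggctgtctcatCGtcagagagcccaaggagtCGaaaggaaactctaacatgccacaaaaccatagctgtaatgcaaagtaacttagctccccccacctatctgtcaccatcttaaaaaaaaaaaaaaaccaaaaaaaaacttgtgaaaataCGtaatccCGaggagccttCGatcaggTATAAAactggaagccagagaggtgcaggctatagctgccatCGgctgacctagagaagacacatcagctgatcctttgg
Fgf2: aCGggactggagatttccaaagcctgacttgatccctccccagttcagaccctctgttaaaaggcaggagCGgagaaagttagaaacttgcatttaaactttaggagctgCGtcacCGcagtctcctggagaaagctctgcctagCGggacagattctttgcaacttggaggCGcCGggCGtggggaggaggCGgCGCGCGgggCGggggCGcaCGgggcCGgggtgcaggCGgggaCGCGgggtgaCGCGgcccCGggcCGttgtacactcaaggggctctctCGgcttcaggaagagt
The observed to expected ratios were 0.0572 for Ly6g, 0.443 for Ifng and 0.842 for Fgf2. All 3 genes were at or near the background of their lanes, so the CpG content of the window varied widely within the set.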

How the data were processed

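The deposited table holds normalized counts from the NanoString mouse myeloid panel, a linear signal per gene that the authors scaled per sample; how is not given in the sources used here. Limma, without a version, is named in the submitters' processing notes. Values above 1 were whole multiples of 1 step per sample (within 0.1, for values up to 200), so barcode counts were recovered by division. Where a count is worth less than 1, values listed at 1 are upper limits. Control probes are listed as unscaled counts. The members and all gene lists were chosen with earlier results of these data known, and genes outside the 92 were named after their values were seen.

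All 655 endogenous genes were fitted with limma 3.58.1 (R 4.3.3) on log2(value + 1), over 5 groups with 17 residual degrees of freedom, and p-values were Benjamini-Hochberg adjusted over all of them. Fold changes on that scale understate those of low genes. edgeR 4.0.16 on recovered counts was an alternative, with other scalings, a pseudocount of 10, a filter on low values, a cartridge block and left-out samples. Data were simulated for entinostat against vehicle over all 655 genes. Of genes changed by 1 on the log2 scale 57% were recovered, and of those changed by 2, 94%. There were 5 false calls among 455 unchanged genes. Recovery was not given separately for the genes at background, so these numbers cannot show how often such genes are found or falsely called. They also do not cover shifts shared by the genes of a lane. The negative controls were higher by 0.96 (log2) after entinostat than in vehicle. No 2 samples of a group were as alike as counting noise alone would make them (lowest chi-square per degree of freedom 2.51 over 39 pairs), which does not show that they came from separate animals. The members whose groups or samples are described in full were those called, or with the highest ratios to a limit. Promoter windows came from RefSeq (GRCm38.p6); 16 genes had none in the table and, for genes with several, the first listed was used.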

Additional observations from a re-analysis of the deposited data

Results flagged for a closer look

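Samples that stood apart from the rest of their group by Dixon's criterion were found in 15 of 79 checks. Chance gives about 1 in 20 for independent checks, but several genes were checked because 1 sample stood out, and the samples share differences in depth, so the number cannot be read against that share. In groups where all other samples had 0, any count above 0 met the criterion. Entinostat plus anti-CTLA-4 sample a had 16 of the 92 genes at or above 10 normalized counts and the other samples of its group 0. It also stood apart for Rnase2b (13.3 normalized counts, nearest 2.46), Tlr12 (14.8, nearest 2.80) and Fcer2a (2.95, nearest 1.20). Triple combination sample 2 stood apart in the worth of a barcode count (9.78, nearest 2.07), in the mean count of its negative controls (2.88, nearest 6.25) and in Fbp1 (29.3 normalized counts, nearest 3.38). In entinostat plus anti-PD-1, sample 3 had a barcode count worth 0.959 (nearest 1.44) and sample 4 an Fcer2a value of 2.88 (nearest 6.71).

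Vehicle sample 3 had 6 of the 92 genes above the negative-control limit (nearest 2), and 25.7 normalized counts of Rnase2b (nearest 4.43). Entinostat sample 1 had 4 genes above it and triple combination sample a had 1, where the other samples of their groups had 0. Vehicle sample V1 had a mean barcode count of 4.90 over the 92 genes (nearest 3.64), and vehicle sample V2 an Fcer2a value of 6.09 (nearest 1.77).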

How the results depend on the processing

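The set depends on its limit: 10 genes met the rule at a limit of 5 and 174 at 20, 52 when 20 of 22 samples were required and 16 when all 22 were, and 156 by barcode counts (157 with Il10, which is set aside). Genes above the negative-control limit in any sample were 8 with 3 SD in place of 19. Leaving out 1 sample gave 92 to 103 and 14 to 19. The F test called 1 of the 92 with a pseudocount of 10 (20.9% of all genes), with negative-control scaling (24.6%) and with median centring (10.2%). It called 0 with quantile normalization (14.5%) and with edgeR and TMM factors (18.8%), and 2 with edgeR and the deposited scaling (13.6%). It called 2 without vehicle samples V1 and V2 (12.7%) and 4 with cartridge as a block (1.83%). Without vehicle sample 3 and triple combination sample a it called 21 (33.4%). Leaving out 1 sample gave 0 to 18. Entinostat against vehicle called 0 with negative-control scaling (0% of all genes) and without vehicle samples V1 and V2 (0.305%). It called 2 with quantile normalization (17.9%) and with TMM factors (17.3%). With cartridge as a block it called 12 (27.5%), and without vehicle sample 3 and triple combination sample a 9 (26.1%). Here leaving out 1 sample gave 0 to 7. Median centring and quantile normalization called 1 in entinostat plus anti-PD-1, and the triple combination had 1 without vehicle sample 3 and triple combination sample a. Leaving out 1 sample gave 0 to 0 with either single antibody and 0 to 3 in the triple combination. The cause was not tested. None of the 92 passed the filter on low values, so it gives no count.

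No sign of pairing by replicate number was seen: same-numbered samples correlated at -0.33 to 0.37 (median -0.027, 24 pairs). Differently numbered samples correlated at -0.50 to 0.48 (median -0.016, 76 pairs). This does not show that the samples are unpaired. With numbered samples only, the F test called 31 (43.8% of all genes) without a block and 19 (30.5%) with the replicate block, and the triple combination 26 (20.3%) and 16 (11.3%).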
